A study of Mus musculus with 12 samples.

Results

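The comparison described here is the interaction of genotype and time in T helper cells that received interleukin 6 (IL-6). For each gene it is the difference between KO-labelled and WT cells at 12 h minus the same difference at 3 h. It is equally the change from 3 h to 12 h in KO-labelled cells minus that change in WT cells, so a positive value means that the time course ran higher in KO-labelled cells. Genes whose 12 deposited values averaged 3 or more were tested, which gave 12436 of 24538 gene rows. At the edge of that filter, Art4 had a mean of 3.00 and an interaction of 0.80, and the first gene below it an interaction of -0.02.

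Both genotypes were on the C57BL/6 background, and their cells, labelled as CD4+ T cells from spleen and lymph nodes, were activated and kept in IL-6 together with an inhibitor of TGFbR, the receptor for transforming growth factor beta (TGF-β). The KO-labelled cells came from CD4cre;Smad4fl/fl mice, in which a Cre recombinase driven by a Cd4 promoter removes a floxed part of Smad4 in T cells, and the other cells were WT. Cells of each genotype were collected at 3 h and at 12 h, which made 4 groups of 3 libraries. Nothing in the labels says that the 3 libraries of a group came from separate mice, so p-values measure only the spread between these libraries, which may be technical in part. Cells before treatment and cells under Th0 conditions, which the series also mentions, were not analysed here.

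TGF-β receptors signal through receptor-regulated SMAD proteins, which enter the nucleus bound to SMAD4. SMAD4 binds each of them, and it also works with the corepressors SKI and SnoN to hold SMAD target genes silent when the signal is absent. IL-6 acts through STAT3 and drives naive CD4+ T cells toward the TH17 fate, the helper cells that make IL-17, which in the mouse usually needs TGF-β as well. Over the first hours after activation a naive T cell leaves its resting programme, switches early response genes on and off again, and later prepares for DNA replication and division. A genotype by time interaction asks whether genes follow that path differently when the SMAD4 partner is deleted.

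Values are the authors' log2 normalised values, and differences are log2 differences with their standard error (SE) from limma. The depth of the libraries is unknown. The CD4 T cell markers summed to between 18.3 and 18.4 at 3 h and between 17.7 and 17.9 at 12 h, and Cd4 stood between 13.31 and 14.57 in the 12 libraries. Smad4 itself was read at 11.62 to 11.66 in the KO-labelled and 11.58 to 11.71 in the WT libraries at 3 h, and at 11.50 to 11.60 and 11.49 to 11.53 at 12 h, with an interaction of 0.02 ± 0.08. A value over the whole gene keeps the reads of the exons that are not floxed, so it does not check the genotype labels, and all directions below rest on those labels. The labels state female mice, yet in the 4 libraries numbered replicate 2 Xist did not exceed 5.70 and the Y-linked Ddx3y reached 12.3 or more. In the 8 other libraries Xist was 15.1 or higher and Ddx3y 2.77 or lower. These 4 libraries thus did not come from the same animals as the 8 others. They are spread evenly over the groups, and the count of calls without them is given below.

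The time courses of the genotypes were close to each other. From 3 h to 12 h, 8453 genes were called in KO-labelled cells (68% of those tested, 4269 higher and 4184 lower at 12 h) and 8449 in WT cells (67.9%, 4271 higher and 4178 lower). Of these, 7613 were called in both, which is 90.1% of either list. Among them 3866 rose in both genotypes, 3746 fell in both, and 1 moved in opposite directions. Across genes the changes with time had a Pearson correlation of 0.962 and a Spearman correlation of 0.951 between the genotypes. This is a description over 12436 genes that are not independent of each other, and the changes compared share no library. The median size of the change was 0.47 in KO-labelled and 0.46 in WT cells, and the first principal component, which held 80.9% of the variance of the 12 libraries, separated the times.

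**Figure D1:**
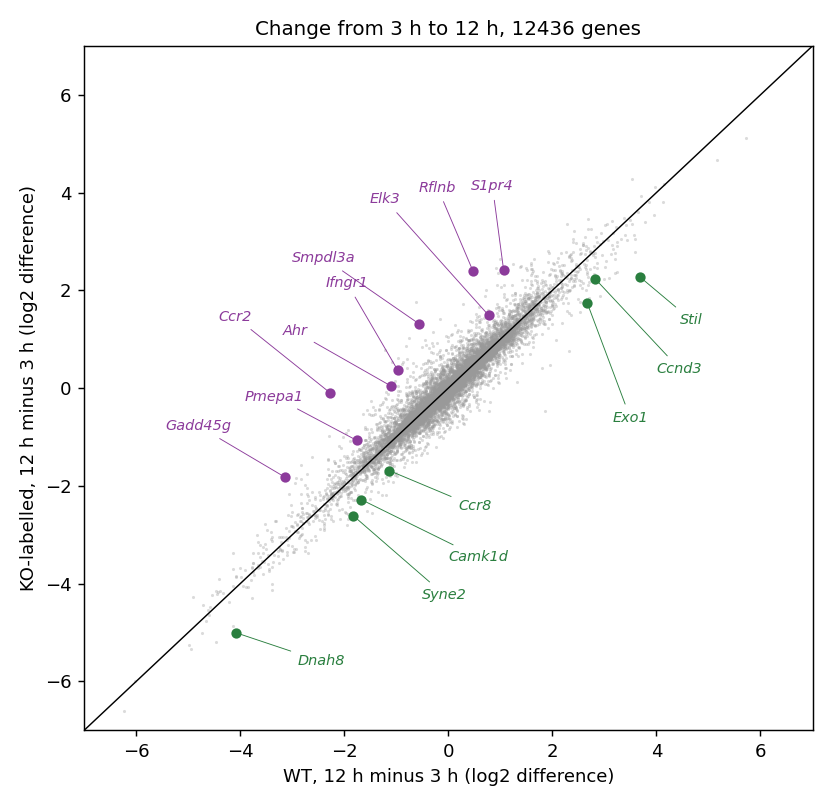
Each point is 1 of the 12436 tested genes, placed by its change from 3 h to 12 h in WT cells (horizontal axis) and in KO-labelled cells (vertical axis), both as log2 differences of group means. The line marks equal changes; named genes are coloured purple where the interaction was positive and green where it was negative, and the cloud follows the line with a correlation of 0.962.

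No gene passed the test of the interaction itself. Limma called 0 of 12436 genes at an adjusted p under 0.05 (0%, Benjamini-Hochberg over all genes), and the smallest adjusted p was 0.0552. At an unadjusted p under 0.05 there were 497 genes, or 4% of those tested, of which 310 (2.49%) had a positive and 187 (1.5%) a negative interaction. A uniform p would place 5% of genes there. The interaction had a median of -0.01 over all genes, and 47.8% of genes were positive. Its values lay between -0.35 and 0.43 for the central 90% of genes, and 84 genes reached a size of 1, which is a 2-fold change of the genotype ratio between the times.

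A p above the threshold does not show that the time courses were equal, so the width of the intervals matters. For 10541 genes (84.8%) the 95% interval of the interaction lay wholly within 1 log2 unit on either side of 0. That share was 45.0% among the 2930 genes with a mean value under 7, 91.6% between 7 and 10, 99.3% between 10 and 13, and 99.8% at 13 or above. A 2-fold change of the genotype ratio was therefore outside the interval for nearly all genes above 10, while most genes under 7 had intervals too wide for that statement.

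The number of called genes depended on how replicate libraries were treated. Same-numbered KO-labelled and WT libraries of the same time deviated together, and a fit with time and replicate number as a block, added after the data had been seen, called 7 genes. Among them were Furin (adjusted p = 0.00713), Ahr (0.0285), Pmepa1, Rora and Tnfrsf1b (0.0319 each) and Ccr2 (0.0344), all with a positive interaction. Ahr, Rora, Tnfrsf1b and Ccr2 were called under no other alternative. The planned block of replicate number alone called 3 genes, among them Furin (limma adjusted p = 0.0111) and Pmepa1 (0.0438). Below, the block means the one added after the data had been seen. Leaving out replicate 2 of the WT libraries at 3 h gave 28 calls, all positive, leaving out replicate 2 of the KO-labelled libraries at 12 h gave 2, and leaving out replicate 3 of the WT libraries at 12 h gave 1. Leaving out replicate 1 or replicate 3 of the WT libraries at 3 h gave 0. Dropping a single replicate 2 library also leaves the replicate numbers uneven over the groups. Without the 4 replicate 2 libraries 0 genes were called and 537 had an unadjusted p under 0.05. None of the genes named below is therefore said to have changed its time course, and their values are given as measurements.

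The genotypes differed at each time on their own in a small share of genes. At 3 h 130 genes were called (1.05%; 37 higher in KO-labelled cells and 93 lower, or 0.748%), and at 12 h 83 genes (0.667%; 62 higher, or 0.499%, and 21 lower). Leaving out 1 library moved these counts to between 22 and 261 at 3 h and between 49 and 102 at 12 h. The libraries at the different times are not shared, and 25 genes were called at both, 19.2% of the first list and 30.1% of the second, all in the same direction. Among the 310 genes with a positive interaction at unadjusted p under 0.05, KO-labelled cells were lower at 3 h and higher at 12 h in 186, lower at both times in 82 and higher at both times in 42. Among the 187 with a negative interaction, KO-labelled cells were higher at 3 h and lower at 12 h in 154, lower at both times in 21 and higher at both in 12. Picking genes by the interaction favours opposite signs at 3 h and 12 h, and these shapes were not counted over all tested genes. They serve below only to order the genes, each shape with its leading genes.

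In the first shape KO-labelled cells kept more of a transcript that fell with time. Pmepa1 encodes a membrane protein that TGF-β induces and that in turn sequesters receptor-regulated SMADs (chromosome 2, 173224458 to 173276533, minus strand, GRCm38). In KO-labelled libraries it stood at 12.28, 12.33 and 12.33 at 3 h and at 11.28, 11.08 and 11.38 at 12 h. In WT libraries it stood at 11.70, 11.75 and 11.68 at 3 h and at 9.94, 9.95 and 9.96 at 12 h. Every KO-labelled value lay above every WT value of the same time, and each possible 3 h to 12 h change was smaller in KO-labelled than in WT libraries. Such separation of the changes was seen for 128 genes on the higher side (1.03%) and 114 on the lower side (0.917%). Separation of the values at a single time, described for this and other genes below, was not counted over all genes. Many of these genes were picked by the same values, so such separation describes them and tests nothing. Pmepa1 fell with time by 1.07 ± 0.07 in KO-labelled cells and fell by 1.76 ± 0.07 in WT cells, and the difference between the genotypes was 0.60 ± 0.07 at 3 h and 1.30 ± 0.07 at 12 h. Its interaction was 0.69 ± 0.10 (SE, n = 3 per group; limma adjusted p = 0.0552), or 1.62-fold, and lay between 0.62 and 0.80 in all 23 alternatives, 7 of which called it.

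Other genes of the TGF-β and SMAD pathway had the same shape with smaller values. Furin encodes the protease that cleaves the TGF-β precursor (chromosome 7, 80388585 to 80405436, minus strand). Its level was 14.82, 14.56 and 14.61 in KO-labelled and 14.88, 14.62 and 14.83 in WT libraries at 3 h, where the groups overlapped. At 12 h it was 13.62, 13.44 and 13.68 in KO-labelled and 13.13, 12.90 and 13.14 in WT libraries, which did not overlap. The genotype difference was -0.11 ± 0.09 at 3 h and 0.53 ± 0.09 at 12 h, an interaction of 0.64 ± 0.13 (limma adjusted p = 0.303, and 0.00713 with the block). Smad3, a receptor-regulated SMAD, fell with time by 2.46 ± 0.06 in KO-labelled cells and fell by 2.80 ± 0.06 in WT cells, with an interaction of 0.34 ± 0.08 (0.437). Id2, an inhibitor of E protein transcription factors, fell by 1.70 ± 0.09 in KO-labelled cells and fell by 2.25 ± 0.09 in WT cells, with an interaction of 0.55 ± 0.13 (0.369). For both genes all KO-labelled values at 12 h lay above all WT values.

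Other genes of the pathway had interactions near 0 or below it. Skil, which encodes SnoN, was higher in KO-labelled cells by 0.99 ± 0.09 at 3 h and by 1.12 ± 0.09 at 12 h, so its interaction was 0.13 ± 0.13 with a 95% interval from -0.15 to 0.42. Smad7, an inhibitory SMAD, had an interaction of 0.16 ± 0.16, and Ski one of 0.05 ± 0.09. Ccr8, a chemokine receptor gene (chromosome 9, 120092114 to 120094906, plus strand), went the other way. It stood at 11.87, 11.79 and 11.76 in KO-labelled and 10.36, 10.49 and 10.45 in WT libraries at 3 h, and at 9.94, 10.09 and 10.32 in KO-labelled and 9.19, 9.32 and 9.40 in WT libraries at 12 h. KO-labelled values were higher at both times without overlap, but the difference was 1.37 ± 0.10 at 3 h and 0.81 ± 0.10 at 12 h, an interaction of -0.56 ± 0.13 (limma adjusted p = 0.421). Itgb3, the integrin beta 3 chain, was lower in KO-labelled cells by 1.52 ± 0.26 at 3 h and 1.64 ± 0.26 at 12 h. Its interaction was -0.13 ± 0.37, with a wide 95% interval from -0.91 to 0.65. Rbpj, the DNA-binding partner of Notch, was higher by 0.30 ± 0.07 and 0.38 ± 0.07, with an interaction of 0.08 ± 0.10.

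**Figure D2:**
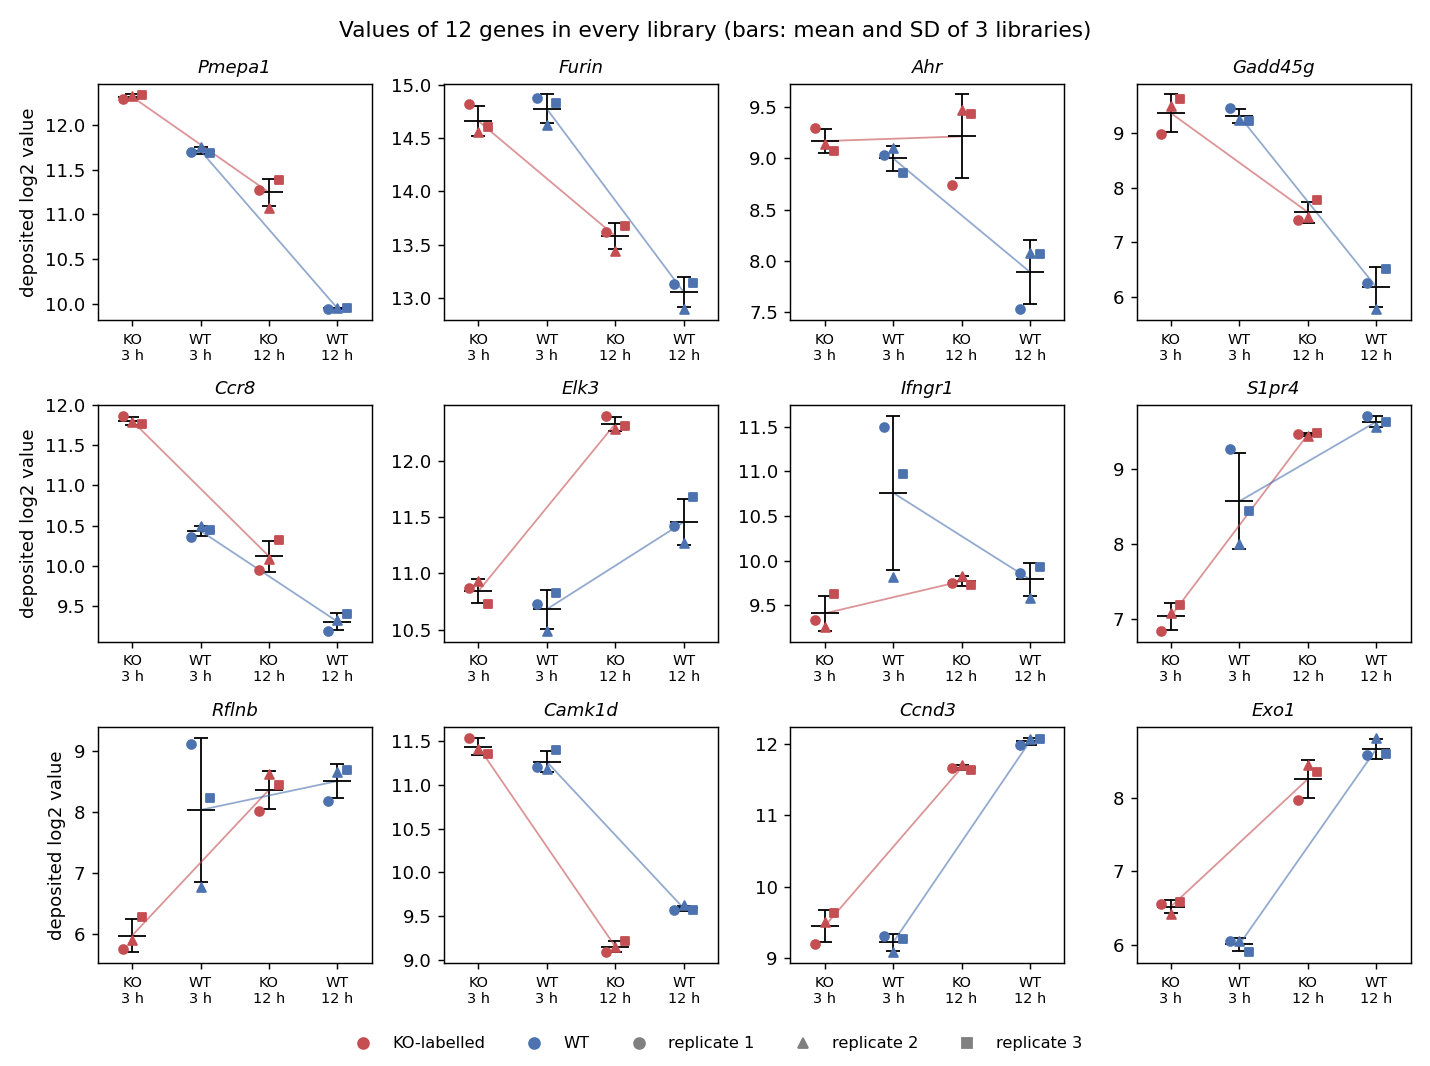
The deposited log2 value of 12 genes in every library, with KO-labelled groups in red to the left of WT groups in blue at each time, replicate numbers as symbols, and the mean and SD of 3 libraries as bars. Lines join the means of a genotype at 3 h and 12 h; for Pmepa1 the lines part, for Ccr8 they draw nearer, and for Ifngr1, S1pr4 and Rflnb the genotypes are further apart at 3 h than at 12 h, with the WT libraries at 3 h widely spread.

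Several TH17 genes that fell with time in WT cells had smaller mean changes in KO-labelled cells, though the difference was not called. Ahr, the aryl hydrocarbon receptor, which TH17 cells need to make IL-22 (chromosome 12, 35497974 to 35535038, minus strand), was at 9.29, 9.14 and 9.07 in KO-labelled and 9.04, 9.10 and 8.86 in WT libraries at 3 h. At 12 h it was at 8.74, 9.47 and 9.43 in KO-labelled and 7.53, 8.08 and 8.07 in WT libraries. The groups overlapped at 3 h and not at 12 h, and replicate 1 was the lowest library of both genotypes at 12 h. Ahr fell by 1.11 ± 0.19 in WT cells (limma adjusted p = 7.12e-05), and its change in KO-labelled cells was 0.05 ± 0.19 (0.839). The interaction was 1.15 ± 0.26 (0.369, and 0.0285 with the block added after the data were seen).

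Rora, a nuclear receptor of the TH17 lineage (chromosome 9, 68653786 to 69388246, plus strand), stood at 12.58, 12.14 and 11.97 in KO-labelled and 12.23, 11.83 and 11.71 in WT libraries at 3 h, and at 10.40, 11.13 and 10.82 in KO-labelled and 9.47, 9.67 and 9.72 in WT libraries at 12 h. The ranges overlapped at 3 h, though each KO-labelled library was above the WT library of the same number, and did not overlap at 12 h. It fell with time in both, by 1.44 ± 0.18 in KO-labelled cells and fell by 2.31 ± 0.18 in WT cells. Its interaction was 0.86 ± 0.25 (limma adjusted p = 0.728, and 0.0319 with the block added after the data were seen). Maf, which drives IL-10 and other TH17 and follicular helper genes, differed by 0.66 ± 0.16 at 3 h and 1.30 ± 0.16 at 12 h, an interaction of 0.64 ± 0.23 (0.985). Il17f, an IL-17 family cytokine gene at the low end of the scale, fell by 1.86 ± 0.23 in KO-labelled cells and fell by 2.82 ± 0.23 in WT cells, with an interaction of 0.97 ± 0.32 (0.875). Il21, another cytokine gene of these cells, fell by 2.06 ± 0.28 in both genotypes.

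Genes with cytokine and stress roles had this shape as well. Gadd45g, a stress sensor that IL-12 and IL-18 induce in T cells (chromosome 13, 51846678 to 51848468, plus strand), was at 8.98, 9.50 and 9.64 in KO-labelled and 9.47, 9.26 and 9.23 in WT libraries at 3 h, and at 7.41, 7.47 and 7.78 in KO-labelled and 6.26, 5.77 and 6.50 in WT libraries at 12 h. Values overlapped at 3 h and did not overlap at 12 h, and the interaction was 1.32 ± 0.28 (limma adjusted p = 0.304). Tnfrsf1b, the type 2 receptor for tumour necrosis factor, differed by 0.45 ± 0.09 at 3 h and 0.98 ± 0.09 at 12 h. Its interaction was 0.53 ± 0.12 (0.369, and 0.0319 with the block added after the data were seen). Rnf149, a membrane ubiquitin ligase, fell by 2.21 ± 0.07 in KO-labelled cells and fell by 2.70 ± 0.07 in WT cells, with an interaction of 0.48 ± 0.09 (0.286).

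In the second shape a transcript that rose with time rose more in KO-labelled cells. Elk3, an ETS family repressor (chromosome 10, 93247414 to 93311135, minus strand), was at 10.87, 10.93 and 10.72 in KO-labelled and 10.73, 10.49 and 10.83 in WT libraries at 3 h, and at 12.40, 12.29 and 12.31 in KO-labelled and 11.42, 11.27 and 11.68 in WT libraries at 12 h. The genotypes overlapped at 3 h and lay apart at 12 h. Elk3 rose by 1.49 ± 0.10 in KO-labelled and by 0.77 ± 0.10 in WT cells, with an interaction of 0.71 ± 0.15 (limma adjusted p = 0.303). Stx11, a syntaxin of the granule release machinery, rose by 1.03 ± 0.10 in KO-labelled and 0.34 ± 0.10 in WT cells, with an interaction of 0.69 ± 0.14 (0.303). Tbc1d4, a Rab GTPase activator, rose by 2.12 ± 0.19 in KO-labelled and 0.94 ± 0.19 in WT cells, with an interaction of 1.18 ± 0.27 (0.369). Capg, an actin capping protein, and Klc4, a kinesin light chain, had 0.69 ± 0.19 (0.677) and 1.17 ± 0.27 (0.369). The mean of both was lower in KO-labelled cells at 3 h and higher at 12 h, where the Capg values of the genotypes overlapped. Txk, a TEC family kinase, did not rise with time. It fell by 1.22 ± 0.14 in WT cells (1.1e-06), and its change in KO-labelled cells was -0.20 ± 0.14 (0.221). The genotype difference was -0.49 ± 0.14 at 3 h and 0.54 ± 0.14 at 12 h, an interaction of 1.03 ± 0.20 (0.286). With a replicate block within genotype the adjusted p was 0.0451 for Elk3 and 0.0460 for Txk. Without replicate 2 of WT at 3 h it was 0.0294 for Elk3, 0.0216 for Txk and 0.0466 for Tbc1d4. Without all 4 replicate 2 libraries it was 0.256 for Elk3, 0.387 for Txk and 0.527 for Tbc1d4.

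In the third shape the genotypes stood apart at 3 h and were closer at 12 h. Ifngr1, a chain of the interferon gamma receptor (chromosome 10, 19591949 to 19610229, plus strand), was at 9.34, 9.26 and 9.63 in KO-labelled and 11.50, 9.81 and 10.97 in WT libraries at 3 h, and at 9.75, 9.83 and 9.73 in KO-labelled and 9.86, 9.58 and 9.93 in WT libraries at 12 h. All WT values at 3 h lay above the KO-labelled values, with replicate 2 of WT much nearer to them than the others. The difference was -1.35 ± 0.28 at 3 h (limma adjusted p = 0.0319) and -0.02 ± 0.28 at 12 h, an interaction of 1.33 ± 0.39 (0.728). Without replicate 2 of WT at 3 h the interaction was 1.80 (0.00336). That library held the WT value nearest to KO-labelled cells, so leaving it out was bound to raise the interaction. Without all 4 replicate 2 libraries the interaction was 1.59 (0.138).

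Replicate 2 of WT was also the lowest WT library at 3 h for S1pr4, Rflnb, Ypel3 and Smpdl3a. Leaving it out was bound to raise their interactions, and without all 4 replicate 2 libraries 0 genes were called. S1pr4, a sphingosine 1-phosphate receptor, was at 6.84, 7.08 and 7.19 in KO-labelled and 9.27, 8.0 and 8.44 in WT libraries at 3 h, and between 9.43 and 9.48 in KO-labelled and 9.56 and 9.71 in WT libraries at 12 h. At 12 h the KO-labelled values still lay below the WT values, without overlap. S1pr4 rose with time in both genotypes, by 2.42 ± 0.22 in KO-labelled and 1.06 ± 0.22 in WT cells, with an interaction of 1.36 ± 0.31 (limma adjusted p = 0.369, and 0.0216 without that library). Rflnb, a filamin-binding protein, was at 5.75, 5.90 and 6.28 in KO-labelled and 9.11, 6.76 and 8.23 in WT libraries at 3 h, and at 8.02, 8.63 and 8.45 in KO-labelled and 8.19, 8.66 and 8.68 in WT libraries at 12 h. The WT values at 3 h spanned more than 2 log2 units, with replicate 2 the lowest. Its interaction was 1.92 ± 0.56 (0.728, and 0.0110 without that library). Ypel3, a small zinc-binding protein linked to growth arrest, had 1.58 ± 0.46 (0.728, and 0.0259 without it). Smpdl3a, a nucleotide-degrading phosphodiesterase, had 1.89 ± 0.40 (0.303, and 0.0216 without it).

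Receptors and interferon-induced genes were among those with this shape. Ccr2, a chemokine receptor gene (chromosome 9, 124101950 to 124113557, plus strand), was at 4.09, 3.55 and 3.85 in KO-labelled and 6.37, 5.20 and 6.01 in WT libraries at 3 h, and at 3.05, 4.02 and 4.12 in KO-labelled and 2.85, 3.75 and 4.16 in WT libraries at 12 h. The groups were apart at 3 h and intermingled at 12 h, all at low values. Its interaction was 2.18 ± 0.53 (limma adjusted p = 0.421, and 0.0344 with the block added after the data were seen). Gbp2, an interferon-induced guanylate-binding GTPase, differed by -1.73 ± 0.27 at 3 h and -0.47 ± 0.27 at 12 h, with an interaction of 1.26 ± 0.38 (0.728). Its lowest WT library at 3 h was again replicate 2, so leaving it out was bound to raise the interaction, which was then 1.63 (0.0362). Gbp3, Gbp5 and Gbp7 of the same family had interactions of 1.02 ± 0.30, 0.99 ± 0.26 and 0.77 ± 0.23. Rasa3, a Ras GTPase activator, and Ctdsp2, a phosphatase, were singled out after their values were seen, so their p-values test nothing. Without replicate 2 of WT at 3 h they had 1.54 (0.00336) and 2.11 (0.00481). With it they had 1.19 ± 0.31 (0.571) and 1.64 ± 0.42 (0.549). Without all 4 replicate 2 libraries the limma adjusted p was 0.138 for Rasa3 and Ctdsp2 and 0.419 for Gbp2.

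Several genes of resting T cells and cytokine receptors had lower mean values in KO-labelled cells at both times. S1pr1, a receptor for sphingosine 1-phosphate with which T cells exit lymph nodes, differed by -2.39 ± 0.42 at 3 h and -1.45 ± 0.42 at 12 h, with an interaction of 0.93 and a 95% interval from -0.32 to 2.18. Klf2, a transcription factor of resting T cells that acts on S1pr1, had -0.72 ± 0.34 and -0.96 ± 0.34, with an interaction of -0.24 ± 0.49. Il7r, the receptor chain for IL-7, had -1.26 ± 0.35 and -0.75 ± 0.35, with an interaction of 0.51 ± 0.49. Klf3, a transcriptional repressor, differed by -1.07 ± 0.21 at 3 h and -0.27 ± 0.21 at 12 h, with an interaction of 0.80 ± 0.30 (limma adjusted p = 0.998). Il12rb2, an IL-12 receptor chain, differed by -1.12 ± 0.25 at 3 h and -0.15 ± 0.25 at 12 h, where the groups overlapped, with an interaction of 0.98 ± 0.35 (0.987). Il18r1, an IL-18 receptor chain, had an interaction of 1.30 ± 0.68 (0.998). In all of them replicate 2 of WT at 3 h was the lowest WT library of that time.

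Summed markers of other cell types are given here by genotype and time. The B cell markers, 20 of 22 in the table and none at 0, summed to between 11.75 and 12.12 in KO-labelled and 12.15 and 12.40 in WT libraries at 3 h. At 12 h they summed to 9.81 to 10.12 and 10.19 to 10.52. The CD8 T and NK cell markers, 17 of 17 in the table with Klra1 at 0, summed to 11.629 to 11.926 in KO-labelled and 11.931 to 12.110 in WT libraries at 3 h. At 12 h they summed to 12.412 to 12.594 and 12.600 to 12.671. For both of these lists every KO-labelled sum lay below every WT sum of the same time, though narrowly in places. Klrd1, an NK cell receptor chain, had an interaction of 1.98 ± 0.54 (limma adjusted p = 0.677) at values of at most 4.20. The myeloid markers, with none at 0, summed to 9.96 to 10.4 in KO-labelled and 10.2 to 10.3 in WT libraries at 3 h and to 8.39 to 8.84 and 8.64 to 8.82 at 12 h. The myeloid sums of the genotypes overlapped at both times. The 4 gamma-delta T and NKT cell markers in the table summed to 4.37 to 5.03 in KO-labelled and 5.19 to 5.80 in WT libraries at 3 h, without overlap. At 12 h they summed to 4.08 to 4.54 and 4.32 to 4.87, with overlap. Haemoglobin genes and Pf4 were at 0. The part of these cells in the results was not tested, and in such bulk RNA fewer cells of a type and less RNA per cell cannot be told apart.

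**Figure D3:**
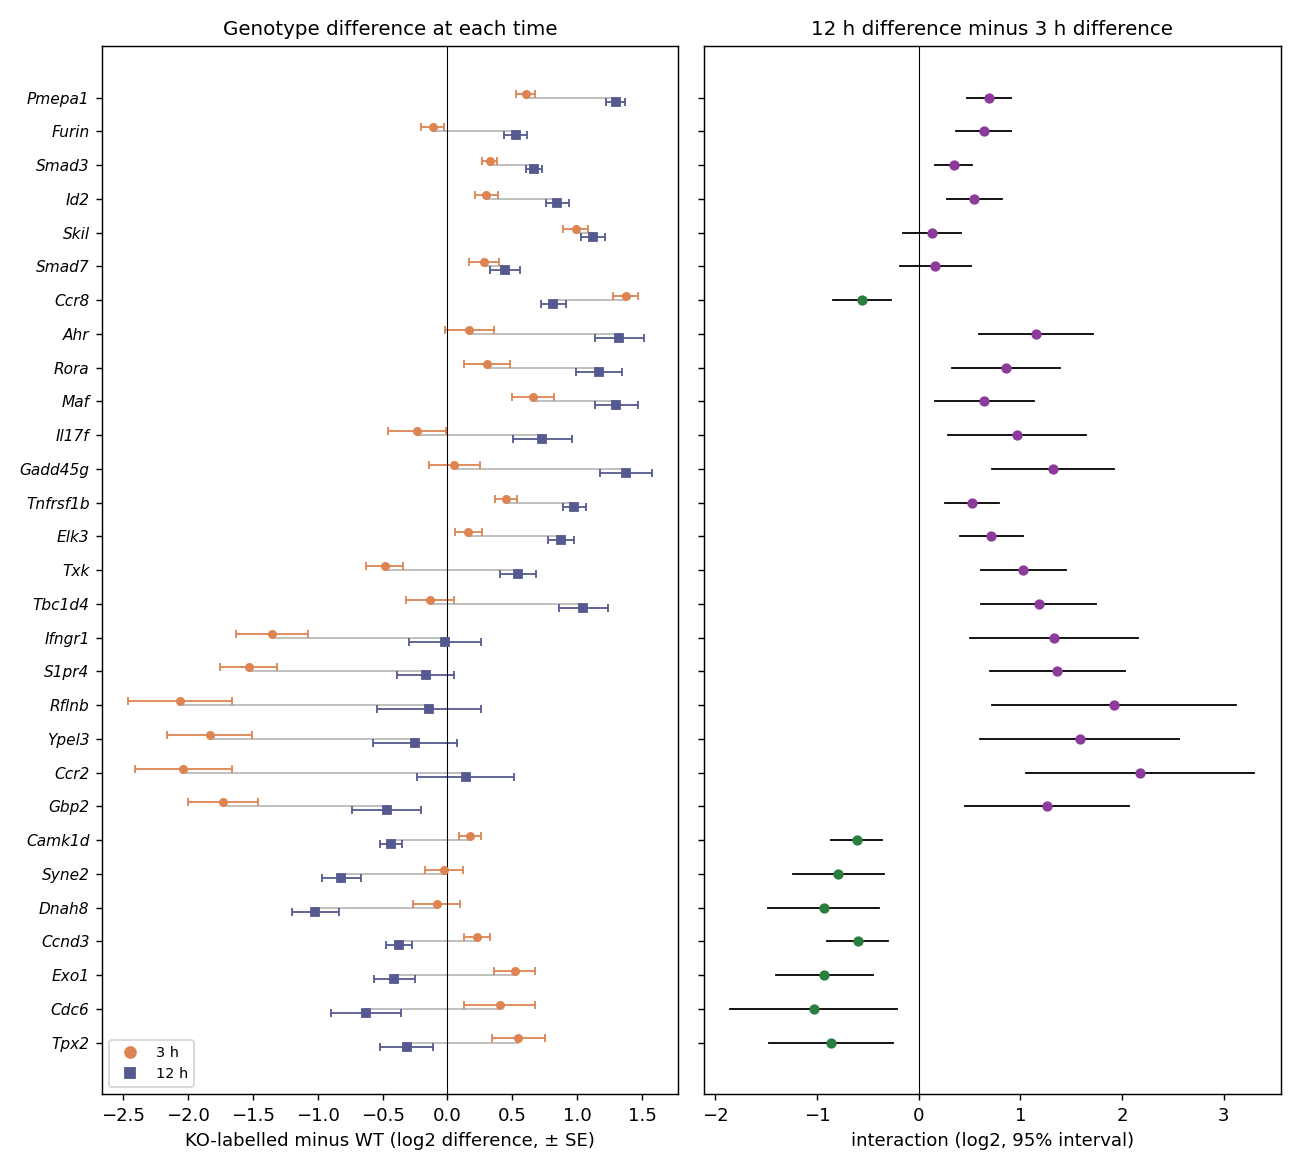
For 29 genes, the left panel gives the difference between KO-labelled and WT cells at 3 h (orange circles) and 12 h (blue squares) as log2 difference with its SE, and the right panel gives the interaction with its 95% interval. Genes such as Ahr and Gadd45g start near 0 and reach more than 1 at 12 h, Ifngr1 and Rflnb start below -1 and end near 0, Skil stays near 1 at both times, and Camk1d, Ccnd3 and Exo1 pass from above to below 0.

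In the fourth shape KO-labelled cells were lower at 12 h than at 3 h relative to WT. Camk1d, a calmodulin-dependent kinase (chromosome 2, 5293457 to 5714515, minus strand), was at 11.54, 11.41 and 11.35 in KO-labelled and 11.20, 11.18 and 11.40 in WT libraries at 3 h, and at 9.09, 9.15 and 9.22 in KO-labelled and 9.57, 9.62 and 9.57 in WT libraries at 12 h. It fell in both genotypes, and at 12 h each KO-labelled value was below each WT value. The interaction was -0.61 ± 0.12 (limma adjusted p = 0.286). Syne2, a nuclear envelope protein, fell by 2.61 ± 0.15 in KO-labelled cells and fell by 1.82 ± 0.15 in WT cells, with an interaction of -0.79 ± 0.21 (0.639). Dnah8, an axonemal dynein chain gene, fell by 5.01 ± 0.18 in KO-labelled cells and fell by 4.07 ± 0.18 in WT cells, with an interaction of -0.93 ± 0.26 (0.677). Ehd3, an endosomal trafficking protein, and Serpinb9, an inhibitor of granzyme B, had -0.46 ± 0.13 and -0.55 ± 0.16 (0.728 each).

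Some genes with this sign rose with time in both genotypes. Ccnd3, the G1 cyclin D3 (chromosome 17, 47505051 to 47599691, plus strand), was at 9.20, 9.51 and 9.63 in KO-labelled and 9.30, 9.08 and 9.27 in WT libraries at 3 h, and at 11.66, 11.71 and 11.64 in KO-labelled and 11.98, 12.07 and 12.08 in WT libraries at 12 h. The genotypes overlapped at 3 h, and WT was higher throughout at 12 h. Ccnd3 rose by 2.23 ± 0.10 in KO-labelled and 2.83 ± 0.10 in WT cells, with an interaction of -0.60 ± 0.14 (limma adjusted p = 0.369). Exo1, an exonuclease of mismatch repair and recombination, was at 6.56, 6.42 and 6.58 in KO-labelled and 6.05, 6.05 and 5.89 in WT libraries at 3 h, and at 7.97, 8.45 and 8.36 in KO-labelled and 8.59, 8.83 and 8.60 in WT libraries at 12 h. KO-labelled cells were above WT at 3 h and below it at 12 h, each time without overlap. Its interaction was -0.93 ± 0.23 (0.421). Stil, needed for centriole duplication, Nsd2, a histone H3 methyltransferase, and the kinase Stk39 had -1.41 ± 0.39 (0.695), -0.42 ± 0.11 (0.588) and -0.59 ± 0.15 (0.571), and the zinc finger gene Zfp101 had -0.60 ± 0.18 (0.728).

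Most of the listed DNA replication genes had this sign. All 50 listed S phase genes were tested, and 43 had a negative and 7 a positive interaction, with a median of -0.15 against -0.01 over all genes. None was called, and 7 had an unadjusted p under 0.05, all negative, against 1.5% of all genes on that side. At 3 h their median genotype difference was 0.03 and at 12 h -0.13, while 45 of the 50 rose with time in KO-labelled and 46 in WT cells. In WT libraries at 12 h their median deviation from the group mean was -0.096 in replicate 1, 0.096 in replicate 2 and 0.015 in replicate 3. In KO-labelled libraries at 12 h it was -0.033, 0.039 and -0.011. The counts of this list describe it and test nothing. Cdc6, a loader of the replicative helicase, rose by 1.88 ± 0.27 in KO-labelled and 2.91 ± 0.27 in WT cells, with an interaction of -1.03 ± 0.39 (limma adjusted p = 0.998). Its licensing partner Cdt1 had -0.23 ± 0.09, the polymerase subunit Pola1 -0.42 ± 0.16 and the single-strand binding subunit Rpa1 -0.22 ± 0.09, with the same adjusted p.

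Of 50 mitosis and G2/M genes, 34 had a negative and 16 a positive interaction, with a median of -0.12 and 5 at an unadjusted p under 0.05, all negative, against 1.5% of all genes on that side. Tpx2, a spindle assembly factor, was at 5.35, 5.31 and 5.22 in KO-labelled and 4.61, 5.19 and 4.43 in WT libraries at 3 h, and at 6.60, 6.85 and 6.91 in KO-labelled and 7.03, 7.19 and 7.08 in WT libraries at 12 h. KO-labelled values were the higher ones at 3 h and the lower ones at 12 h. Its interaction was -0.86 ± 0.29 (limma adjusted p = 0.888), and that of Cdk1, the mitotic kinase, was -0.86 ± 0.36 (0.998). Bub1b, a spindle checkpoint kinase, had -0.62 ± 0.22 (0.987) and Pbk, a mitotic kinase, -1.19 ± 0.48 (0.998).

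Gene lists of helper T cell biology showed more positive than negative members. In the TH17 programme 20 of 25 genes were tested, all 20 had a positive interaction (18 with median centring), and the median was 0.24. None was called, and 8 had an unadjusted p under 0.05, all positive, against 2.49% of all genes on that side. The median genotype difference of the list was 0.02 at 3 h and 0.36 at 12 h, and 14 members fell with time in KO-labelled against 17 in WT cells. The SD within a group was also larger for these genes, with a median of 0.23 in KO-labelled libraries at 12 h against 0.12 for all genes. The list and its members were chosen with results of these data known, so its counts describe it and test nothing.

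Among TGF-β and SMAD target genes, 30 of 36 were tested, 22 positive and 8 negative, with a median of 0.13, 5 at an unadjusted p under 0.05 on the positive side and 1, Ccr8, on the negative side, against 2.49% and 1.5% of all genes. The 5 were Pmepa1, Furin, Smad3, Id2 and Ldlrad4, an inhibitor of TGF-β signalling that was named after its values were seen. SMAD and TGF-β pathway components, with 13 positive and 10 negative of 23 and a median of 0.03, had 1 such gene, Smad3. IL-6 and STAT3 responsive genes had 20 positive and 6 negative of 26, a median of 0.13 and 7 positive genes at an unadjusted p under 0.05, against 2.49% of all genes. They held Il6ra, the IL-6 receptor chain (0.52 ± 0.15, limma adjusted p = 0.728), and Cish, a feedback inhibitor of cytokine receptors (0.32 ± 0.10, 0.854). Gadd45g and Ifngr1 belong to this list as well.

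Resting cell, interferon and TH1 lists had genotype differences with medians below 0 at both times and interactions with medians above 0. Naive and resting genes had 18 positive and 14 negative of 32, a median of 0.09 and 7 positive genes at an unadjusted p under 0.05 (2.49% of all genes were positive at that level and 1.5% negative), with a median genotype difference of -0.45 at 3 h and -0.22 at 12 h. Ccr7, the chemokine receptor that leads T cells into lymph nodes, rose by 2.76 ± 0.20 in KO-labelled and 1.93 ± 0.20 in WT cells, with an interaction of 0.83 ± 0.28 (limma adjusted p = 0.936). Type I interferon response genes had 23 positive and 17 negative of 40, a median of 0.08, and 5 positive and 1 negative gene at an unadjusted p under 0.05, and the positive ones include the 4 Gbp genes above. TH1 genes had 16 positive and 5 negative of 21, a median of 0.12 and 4 such positive genes. Ifngr2, the partner chain of Ifngr1, had 0.65 ± 0.28 (0.998). In WT libraries at 3 h the median deviation of naive and resting genes from the group mean was 0.21 in replicate 1, -0.16 in replicate 2 and -0.01 in replicate 3.

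The other lists of immune and lipid genes are given by their medians and their members at an unadjusted p under 0.05, positive before negative, against 2.49% and 1.5% of all genes. Cholesterol synthesis genes had 20 positive and 5 negative of 25, a median of 0.14 and 4 positive genes at that level. Among these were the pathway enzymes Mvk (0.56 ± 0.22), Fdps (0.25 ± 0.10) and Fdft1 (0.35 ± 0.13), with mean values lower in KO-labelled cells at 3 h and higher at 12 h, with limma adjusted p from 0.971 to 0.998. Regulatory T cell genes had a median of 0.21 over 18 with 4 positive and 1 negative at that level, among them Ikzf4, the factor Eos (0.72 ± 0.26), Izumo1r, the folate receptor 4 (0.46 ± 0.15), and Tigit, a coinhibitory receptor (0.54 ± 0.20). Chemokines and their receptors had 0.15 over 23 with 4 and 1, follicular helper genes 0.06 over 18 with 6 and 0, TH2 genes 0.09 over 13 with 1 and 1, and costimulatory and TNF receptor family genes 0.01 over 28 with 5 and 1. Tox2 and Tox, nuclear factors of the follicular helper list, had 0.67 ± 0.20 and 0.33 ± 0.12. Icosl, the ligand of ICOS, was the negative costimulatory gene with -0.86 ± 0.34. Early activation genes had a median of 0.08 over 30, with 2 positive genes, the interferon regulatory factor Irf8 (0.47 ± 0.17) and the phosphatase Dusp5 (0.45 ± 0.17).

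Growth and metabolism lists had medians close to 0. Of 48 MYC and ribosome biogenesis genes, 30 oxidative phosphorylation genes, 30 genes of glycolysis and hypoxia, 29 of the unfolded protein response and amino acid stress and 19 heat shock genes, 0 had an unadjusted p under 0.05. Their medians were -0.01, -0.01, 0.01, -0.01 and -0.06. Positive and negative members numbered 22 and 26, 13 and 17, 16 and 14, 14 and 15, and 5 and 14. With median centring these counts were 15 and 33, 8 and 22, 14 and 16, 10 and 19, and 3 and 16. Over all genes median centring gave 5188 positive and 7248 negative. The 95% interval lay within 1 log2 unit of 0 for all 48, all 30, 29 of 30, 28 of 29 and 17 of 19. Of the 30 oxidative phosphorylation genes, 28 rose with time in KO-labelled and 28 in WT cells. The B cell markers had a median of 0.07 over 19 tested, the CD8 T and NK cell markers 0.05 over 10, the myeloid markers 0.03 over 10, the erythroid and platelet markers -0.22 over 4 and the CD4 T cell markers 0.05 over 12. The unadjusted p was under 0.05 for H2-Ab1, an MHC class II chain (0.54 ± 0.24), Klrd1 and Fcer1g, an Fc receptor chain (0.81 ± 0.32), and for 0 of the gamma-delta T and NKT, erythroid and CD4 T cell markers.

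**Figure D4:**
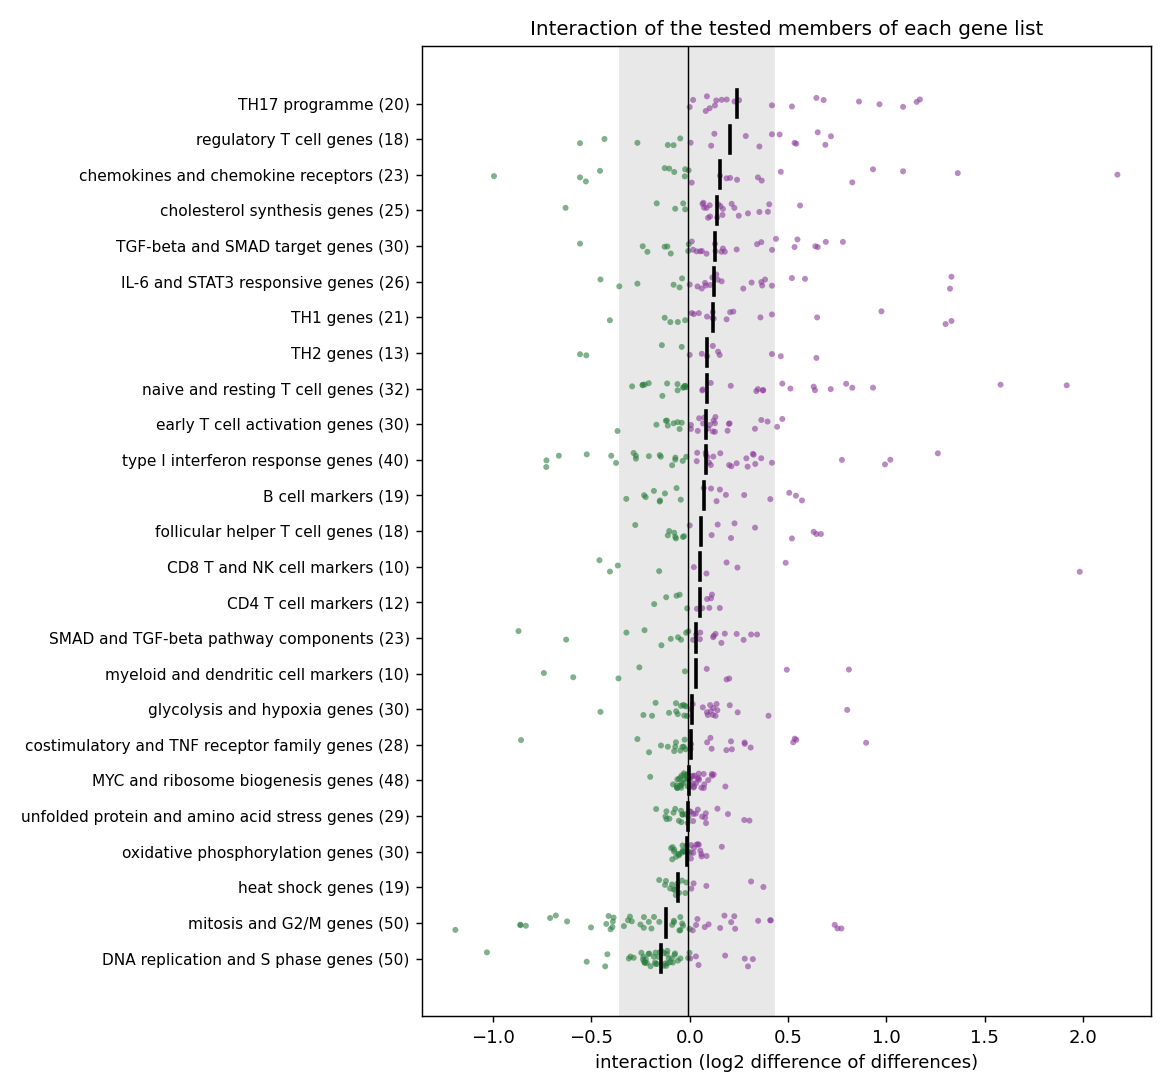
Each point is a tested member of a gene list, placed by its interaction in log2 units, purple where positive and green where negative, with the number tested in brackets and the list median as a black bar. The grey band spans the central 90% of all 12436 genes, from -0.35 to 0.43, and the vertical line their median; TH17 members lie at or above 0, most S phase members below it, and the MYC and oxidative phosphorylation members inside the band.

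A single gene was called with time in opposite directions in the genotypes, and it was picked out after its values were seen. Uggt2, a glucosyltransferase of endoplasmic reticulum quality control, was at 3.09, 3.14 and 3.62 in KO-labelled and 4.60, 3.95 and 4.12 in WT libraries at 3 h, and at 3.80, 4.14 and 3.75 in KO-labelled and 2.98, 3.47 and 3.33 in WT libraries at 12 h. KO-labelled cells were below WT at 3 h and above it at 12 h, without overlap, close to the lower limit of the filter. It rose by 0.61 ± 0.25 in KO-labelled cells (limma adjusted p = 0.0410) and fell by 0.96 ± 0.25 in WT cells (0.00299), with an interaction of 1.58 ± 0.35 (0.369). No promoter sequence was compared, since the interaction called no gene.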

How the data were processed

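Messenger RNA of 12 libraries was read with the TruSeq kit, which does not mark strand, per the labels' protocols, so reads of overlapping antisense genes cannot be told apart. The authors deposited log2 normalised values per gene. The submitters' processing notes name Trim Galore, STAR, featureCounts, DESeq2 and build mm10. No version is given in the sources used here, nor is the transform. The values look like a regularised log (5663 rows at 0 in all libraries, 0 rows at 0 in only some, values from -2.37 to 20.1), which understates differences of low genes. Depth is unknown, so no counting interval is given and precision rests on 3 libraries per group. All 12 columns matched a sample title, and 0 columns were unmapped.

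Group means were fitted to all 12 libraries with limma 3.58.1 in R 4.3.3 (empirical Bayes with trend, two-sided, no covariates), for genes with a mean of at least 3, and Benjamini-Hochberg adjustment ran over 12436 genes with calls at 0.05. The fit was tested on simulated data whose noise was independent between libraries. That test therefore does not cover the correlation of same-numbered libraries seen here. Coordinates are from GENCODE M21 (GRCm38, the build mm10), matched by symbol for 12175 tested genes. In 26 rows the gene name was a date, a known spreadsheet fault, and 19 of them were tested.

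Members, 27 gene lists and tests were chosen with earlier results of these data known. Named genes are a fixed set of T cell and SMAD genes, the 12 genes per direction with the smallest p among those with a group mean of at least 5 (since none was called), and up to 4 genes per list. Gene models without a proper name were counted and not named, and some genes that meet the rule are not reported here, though counts include them.

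The replicate numbers come from the sample titles. Residuals of same-numbered libraries of the same time correlated above 0.1 in 6 of 6 pairs (0.17 to 0.50). Pairs sharing neither time nor genotype did so in 6 of 6 as well (0.11 to 0.38), and pairs of the same genotype in 4 of 6. The correlations thus do not single out a block within time. They were highest among the replicate 2 libraries, which also differ in Xist and Ddx3y. A block of time and replicate number was fitted beside the main model after the data had been seen, and its values are given where they change a call.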

Additional observations from a re-analysis of the deposited data

How the results depend on the processing

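The interaction called 0 of 12436 genes, and also 0 with a minimum mean of 5, without trend, with median centring, with array weights and without the 4 replicate 2 libraries. It called 3 without a filter on low values, 2 with robust priors, 2 with quantile normalization, 3 with the replicate block, 8 with the block within genotype and 7 with the block within time, the last added after the data had been seen. Without 1 library the count ran from 0 to 28. The genotype count at 3 h, 130, was 14 without the filter, 200 with the replicate block and 22 to 261 without 1 library (KO 3 h replicates 1, 2 and 3 gave 22, 58 and 77, WT 3 h replicates 1, 2 and 3 gave 36, 261 and 33, KO 12 h replicate 2 gave 66, WT 12 h replicates 2 and 3 gave 71 and 83). At 12 h, 83, it was 40 without the filter, 114 with the block, and 49 to 102 without 1 library (53 without KO 12 h replicate 1, 49 without WT 12 h replicate 1). The counts of change with time stayed within 1.5 times. Of 87 named genes 17 were called under some alternative, and 6, all well short of a call, changed the sign of their interaction under some. Itgb3 was 0.041 with quantile normalization and 0.052 without the replicate 2 libraries, where Skil was -0.0027. Smad4 was -0.0034 and Il21 -0.023 with median centring, and Ccl1 was 0.31 with array weights. Without 1 library Itgb3 ran from -0.42 to 0.11, Smad4 from -0.012 to 0.053, Il21 from -0.34 to 0.43, Ccl1 from -0.34 to 0.29 and Klf2 from -0.65 to 0.13. The cause of these shifts was not tested. Same-numbered libraries correlated above 0.1 in 16 of 18 pairs over all groups, against 4 of 36 with different numbers, and the 2 exceptions compare KO-labelled libraries of 3 h and 12 h. The interval of the interaction was widest among genes with a mean under 7.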
